A study of Homo sapiens with 18 samples.

Results

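The comparison described here is amiloride against DMSO in KMS12-BM, a human line derived from multiple myeloma, which is a cancer of the antibody-secreting plasma cells. It takes 6 of the 18 RNA-seq libraries of the series, chosen by their labels: 3 libraries of KMS12-BM given 0.1 mM amiloride for 24 h and 3 libraries of the same line labelled as untreated with DMSO, for which no duration is given. The other 12 libraries are 3 of KMS12-BM with TG003 and 9 of the myeloma line JJN3. TG003, a kinase inhibitor, was given at 0.4 mM for 24 h, and the amiloride dose of JJN3 was 0.4 mM. KMS12-BM was grown in RPMI 1640 medium with serum, and no genetic change was made in any group. Whether replicates are separate cultures is not stated in the labels, so p-values measure only the spread between these samples, which may be technical.

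Amiloride is a potassium-sparing diuretic that blocks epithelial sodium channels and, at higher concentrations, sodium-proton exchangers. Cells that lose such exchange must regulate their internal pH, sodium and volume by other transporters, and ion levels in turn bear on trafficking, the cytoskeleton and nutrient signalling. Plasma cells devote much of their messenger RNA to secretion and hold the factors IRF4 and XBP1 as part of their identity.

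Expression is given as CPM, the read count brought to a common library size and scaled for library composition, with the 3 DMSO libraries and then the 3 amiloride libraries in replicate order. Changes are log2 fold changes, amiloride minus DMSO, followed by ± and the standard error, so that 1 stands for a 2-fold rise. A gene is called higher or lower at an adjusted p under 0.05 in edgeR's quasi-likelihood test. Beside a fold change, a value with a trend with transcript GC content removed is printed where it moved more than 1.5 times or changed the call or direction. Genes without such a value can still move by less, as AKT1 did (-1.26 to -0.68). Coordinates are those of GRCh37.

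Reads in genes ranged from 29906945 to 50570234 over the 6 libraries. Reads placed in no gene made up 12.08% to 12.43% of the records with DMSO and 12.42% to 13.55% with amiloride, and reads with several placements 16.07% to 16.22% and 13.26% to 14.58%. Mitochondrially encoded genes held 3.863% to 4.246% of the gene reads with DMSO and 0.265% to 0.4483% with amiloride. The scaling for library composition is meant to offset such a shift. Scaling factors made without the 10 most abundant genes gave 10836 calls, against 10835 in the main fit, and a median log2 fold change of -0.021. The main factors already set aside genes with extreme changes and take most genes as unchanged, so these fits could hardly differ. A shift of RNA shared by most genes would not be seen in either fit. In total 10835 of 15765 genes tested were called (68.7%), with 5281 higher (33.5%) and 5554 lower (35.2%). Of these, 4673 changed at least 2-fold (29.6%), of which 1893 were higher (12.0% of genes tested) and 2780 lower (17.6%). The CPM ranges of the groups did not overlap for 11307 genes (71.7%), and the median log2 fold change of all genes tested was -0.02. Counts of called genes below are to be read against these shares.

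The identity of the cells was checked on 15 plasma cell markers. Their summed level was 2540 to 2630 CPM with DMSO and 3230 to 3500 CPM with amiloride, and none was at 0 in all 3 libraries of a group. IRF4, the factor on which myeloma cells depend, went from 1177, 1150 and 1218 CPM to 2009, 2137 and 2251 CPM (0.85 ± 0.07), and without it the sum was 1390 to 1440 CPM and 1220 to 1260 CPM. Of the 14 markers tested, 2 were higher and 6 lower, with a median of -0.179. The surface proteoglycan gene SDC1, which encodes the plasma cell antigen CD138, stood at 14, 14.3 and 13.2 CPM with DMSO and at 2.4, 2.93 and 2.56 CPM with amiloride (-2.39 ± 0.16, adjusted p = 2.05e-07). MZB1, a chaperone of antibody assembly, stood at 359.5, 334 and 292 CPM and 113, 78.5 and 58.2 CPM (-1.98 ± 0.22). CD27, a costimulatory receptor, fell by 0.98 on the log2 scale. The groups did not overlap for any of these 4 genes. TNFRSF17, the BCMA receptor (0.08 ± 0.12), CD38 (0.00 ± 0.12) and PRDM1 (0.17 ± 0.07, adjusted p = 0.0592) were not called, although PRDM1 passed in DESeq2 (0.18). In bulk libraries, fewer cells of a kind and less RNA per cell cannot be told apart.

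Of 24 markers of other blood and stromal cells, 14 were at 0 in all 3 DMSO libraries and 14 in all 3 amiloride libraries, with the same genes in both sets but for 1 each, among them CD2, CD3G, MPO and CDH5. EPCAM, an epithelial adhesion gene, made up nearly all of the sum in both groups, and without it the markers summed to 3.99 to 4.07 CPM with DMSO and 6.19 to 7.49 CPM with amiloride. Of the 5 that could be tested, 4 were higher and 1 lower. CD14, a monocyte receptor for bacterial lipopolysaccharide, went from 0.0347, 0.0253 and 0.0407 CPM to 0.993, 1.13 and 1.2 CPM, CD8A from 1.73, 1.72 and 1.69 CPM to 3.94, 4.59 and 4.92 CPM, and CD3E from 1.21, 1.39 and 1.22 CPM to 0.157, 0.184 and 0.103 CPM. LYZ and CD163, which mark the cells that carry CD14, were at under 0.1 CPM in every library.

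Called genes whose groups did not overlap and whose mean CPM across the 6 compared libraries was 5 or more were ranked by fold change, leaving out mitochondrially encoded, stress-response and cholesterol genes and some others such as MMP14. Within these limits the first rise was that of MGAM, the intestinal maltase-glucoamylase (chromosome 7, 141607613 to 141806547). It was counted in 1, 4 and 3 reads of the DMSO libraries and in 444, 668 and 417 reads of the amiloride libraries, or 0.0347, 0.101 and 0.061 CPM and 11.6, 15.4 and 14.3 CPM (7.59 ± 0.26, adjusted p = 5.34e-09). SLC16A4, a member of the monocarboxylate transporter family (chromosome 1, 110905473 to 110933704), went from 0.104, 0.0758 and 0.0407 CPM to 7.6, 12.9 and 15.7 CPM (7.39 ± 0.47, adjusted p = 2.66e-07). Both were close to silent with DMSO, so that their fold changes rest on few DMSO reads, and were present in every treated library. SLC16A4 overlaps LAMTOR5-AS1 and SLC16A4-AS1 on the other strand, and the strand setting of the counting is not given. Many genes named below also overlap tested genes, which is not repeated for each. Among the large changes, GPR18 overlaps UBAC2, TCP11L2 overlaps CKAP4 and ARFRP1 overlaps ZGPAT on the other strand, and TIAM2 overlaps SCAF8 on the same strand.

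The next rises began from low levels. CREBRF, a regulator of the CREB3 family of factors, stood at 3.71, 3.96 and 3.64 CPM and at 42.5, 60.6 and 67.4 CPM (3.91 ± 0.20). SAT1, the enzyme that acetylates spermidine and spermine for their removal (chromosome X, 23801290 to 23804327), stood at 8.53, 7.98 and 7.06 CPM and 92.4, 118 and 124 CPM (3.83 ± 0.18, adjusted p = 5.42e-08). RFX3, a factor of ciliary genes, rose by 3.72 ± 0.19. BACH2, a repressor that holds B cells back from plasma cell differentiation (chromosome 6, 90636247 to 91006562), went from 8.15, 9.14 and 9.11 CPM to 60.1, 76.1 and 91.8 CPM (3.11 ± 0.17, adjusted p = 7.43e-08). GIMAP8, a GTPase of lymphocytes, went from 14.5, 9.92 and 11.7 CPM to 106, 136 and 157 CPM (3.47 ± 0.18). Groups without overlap were a condition of the ranking, and in these genes the lowest treated library lay far above the highest DMSO library. GPR18, a lipid-sensing receptor (3.34 ± 0.19), TIAM2, an exchange factor of RAC1 (3.25 ± 0.18), TCP11L2 (3.47 ± 0.24), TINCR (3.04 ± 0.19, or 3.69 with a trend with transcript GC content removed) and the histone genes H2AC6 (3.65 ± 0.23), H2BC5 (3.47 ± 0.21) and H2BC15 (3.04 ± 0.18) completed the group, with the F-box gene FBXO32 described below.

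Falls were ranked within the same limits. Apart from nuclear copies of mitochondrial genes (MTCO1P12, MTATP6P1 and MTND2P28, at -5.85, -5.53 and -4.13), they were led by GPRIN1, a partner of G proteins in neurites, which went from 17, 15.9 and 14.4 CPM to 0.627, 0.208 and 0.205 CPM (-5.47 ± 0.28, or -4.85 with the GC trend removed). Metabolic genes of the mitochondrion and urea cycle were among them. SLC25A10, the mitochondrial dicarboxylate carrier, stood at 21.2, 19.1 and 15.5 CPM and 0.967, 0.369 and 0.308 CPM (-5.05 ± 0.30, or -4.34 with the GC trend removed). IDH2, which makes 2-oxoglutarate and NADPH (chromosome 15, 90626277 to 90645709), stood at 15.8, 9.97 and 10.1 CPM and 0.967, 0.3 and 0.171 CPM (-4.59 ± 0.43, adjusted p = 6.82e-06). ASL, which splits argininosuccinate into arginine and fumarate, stood at 22, 24.6 and 21.5 CPM and 1.88, 0.715 and 0.889 CPM (-4.28 ± 0.27, adjusted p = 2.68e-07). Amiloride library 1 was the highest of the 3 treated libraries for all 4 genes, and without it the values of GPRIN1, SLC25A10 and IDH2 were -6.23, -5.74 and -5.57.

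CXCR3, a chemokine receptor of lymphocytes (chromosome X, 70835766 to 70838361), stood at 46.9, 27.4 and 28.5 CPM with DMSO and at 3.94, 0.415 and 0.41 CPM with amiloride (-4.39 ± 0.72, adjusted p = 0.0005). Its groups did not overlap, as the ranking required, but amiloride library 1 held most of its treated signal. Without that library the value was -6.35, while with the GC trend removed it was -3.80. POLR2I, a small subunit of RNA polymerase II (chromosome 19, 36604611 to 36606115), went from 33.7, 43.6 and 45.2 CPM to 2.25, 2.42 and 2.19 CPM (-4.15 ± 0.13), and it overlaps TBCB on the other strand. CENPM, a kinetochore protein (-4.13 ± 0.24), the lymphoid exchange factor FGD2 (-4.31 ± 0.34, or -4.97 without amiloride library 1), HPCAL4 (-4.19 ± 0.29), GAREM2 (-4.52 ± 0.35, or -5.28 without amiloride library 1 and -3.87 with the GC trend removed), ARFRP1, a Golgi GTPase (-4.14 ± 0.13, or -3.49), and LINC03040 (-4.89 ± 0.24) made up the rest.

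**Figure D1:**
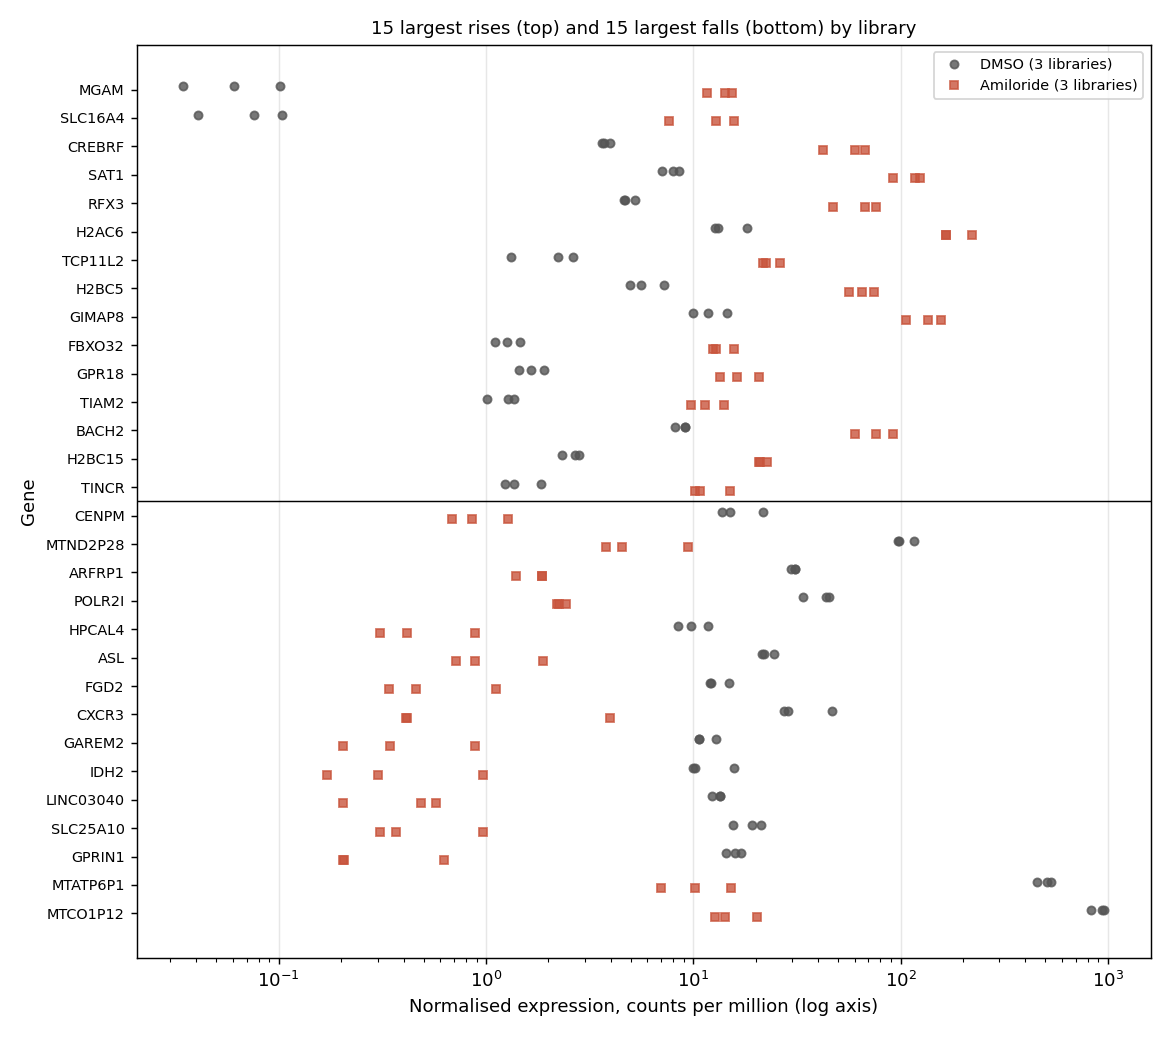
Expression of the 15 largest rises and the 15 largest falls in KMS12-BM at a mean of at least 5 CPM, by library, on a log axis in CPM. Circles are the 3 DMSO libraries and squares the 3 amiloride libraries of each gene. The groups are apart for every gene shown because the ranking required it, and CXCR3 has 1 treated library (3.94 CPM) away from the other 2.

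A further set was under 0.1 CPM in all 3 libraries of 1 group and at 1 CPM or more in all 3 of the other. On the side of amiloride these were ASTL, an egg protease of the astacin family (0.0347, 0.0758 and 0.0813 CPM against 4.47, 5.14 and 4.92 CPM), SYNDIG1L (0.0347, 0.0253 and 0.0203 against 1.65, 2.81 and 2.8 CPM), BCO2, the mitochondrial carotene dioxygenase (0.0347, 0 and 0 against 1.65, 2.28 and 1.68 CPM), MANSC4, CCNP, the cyclic nucleotide phosphodiesterase gene PDE7B and LINC02732. The genes on the side of DMSO were TMEM37 (3.36, 2.3 and 2.01 against 0.0784, 0.0231 and 0 CPM), PHYHIP, GPR162, APLP1, CFAP73, PAPLN and the erythroid repressor gene GFI1B (1.32, 1.21 and 1.32 against 0.0784, 0.0461 and 0.0684 CPM). These 14 genes rest on few reads in the low group, and no fold is given for them.

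A further ranking used the difference of group means in CPM, which favours abundant messengers, and left out the same genes. The 10 largest falls included ACTB and ACTG1, described below. TUBB, a beta-tubulin, went from 3028, 2544 and 2530 CPM to 720.0, 781 and 833 CPM (-1.80 ± 0.09) and the alpha-tubulin TUBA1B from 2231, 2383 and 2062 CPM to 780.0, 877 and 1078 CPM (-1.29 ± 0.11). EEF1A1, the factor that brings aminoacyl-tRNA to the ribosome, went from 1693, 1718 and 1622 CPM to 458, 443 and 371 CPM (-1.98 ± 0.11). Its processed pseudogene EEF1A1P5 was at -1.91 ± 0.19, and sharing of reads between such copies was not tested. The glycolytic gene PKM went from 1863, 1808 and 1774 CPM to 775, 711 and 752 CPM (-1.28 ± 0.07), and GAPDH (-0.66 ± 0.11) and ENO1 (-0.57 ± 0.08) of the same pathway were lower too. The largest rise by this measure was that of IRF4, given above. SARS1, the seryl-tRNA synthetase, rose from 174, 159.7 and 182 CPM to 636, 804 and 870.3 CPM (2.16 ± 0.16). HNRNPK (0.86 ± 0.07) and SF1 (1.06 ± 0.07), which bind pre-messenger RNA, YWHAZ (0.74 ± 0.07) of the 14-3-3 family and RAD21 of cohesin (0.75 ± 0.07) were also among the largest rises. For all of these the groups did not overlap. IGHD, the constant region of immunoglobulin delta, stood at 9899, 8104 and 7515 CPM and 7580, 6379 and 5906 CPM, and the groups overlapped (-0.36 ± 0.13, adjusted p = 0.0292). Its call was lost without DMSO library 1 (-0.24), amiloride library 2 (-0.33) or amiloride library 3 (-0.28), and its direction turned with the GC trend removed (0.26).

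The 46 gene lists of pathways and complexes differed in the balance of calls. Iron, zinc, antigen presentation and adhesion lists held mostly lower members, while autophagy, Golgi, Mediator, histone demethylase, acetylation, clock and RNA decay lists held mostly higher ones. Shares in each list stand beside those of all genes (33.5% higher and 35.2% lower) in the plot of calls per list.

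**Figure D2:**
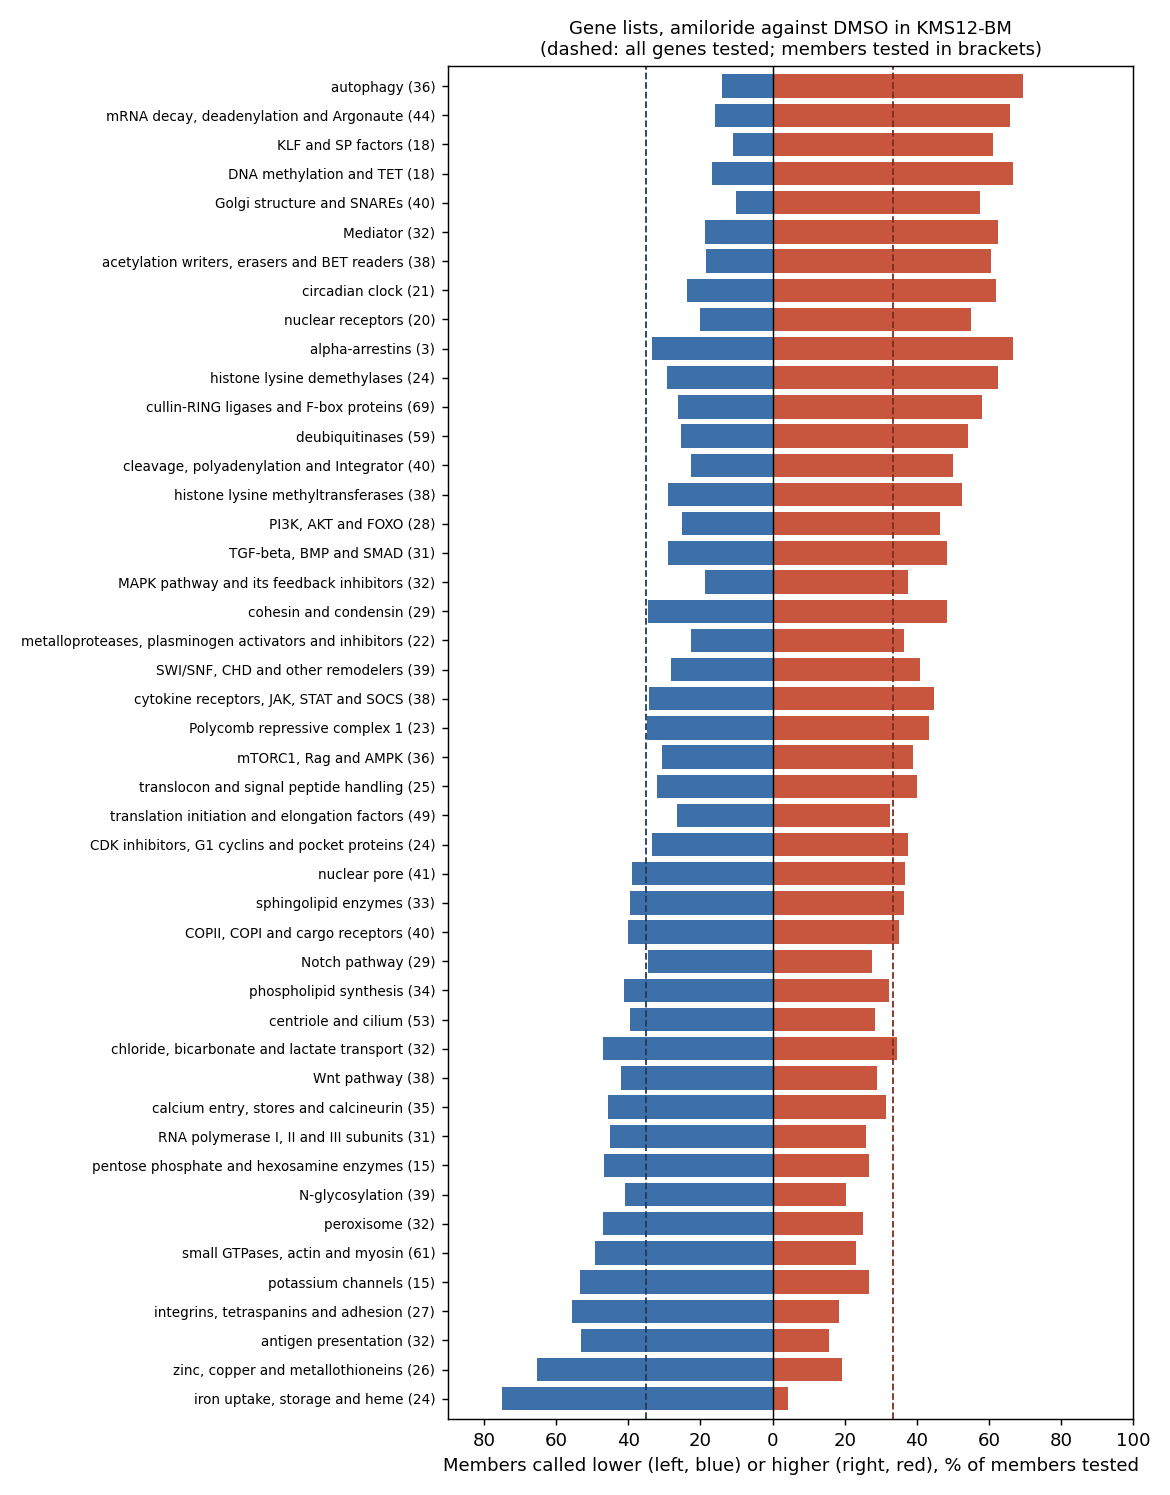
Share of the tested members of each gene list called lower (left) and higher (right) with amiloride in KMS12-BM, in percent, with the number tested in brackets. Dashed lines mark the shares of all genes tested, 35.2% and 33.5%. The iron and heme list has the highest share of lower members (75.0%) and the autophagy list the highest share of higher members (69.4%).

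Most genes of iron uptake, storage and heme were lower. Of 24 genes tested, 18 were lower (75.0%) and 1 higher, with a median of -0.753. UROS, which closes the porphyrin ring in heme synthesis (chromosome 10, 127473549 to 127511827), stood at 22.6, 19.9 and 22.1 CPM with DMSO and at 2.85, 1.68 and 1.44 CPM with amiloride (-3.42 ± 0.19, adjusted p = 9.15e-08). FECH, which inserts iron into the finished ring, stood at 91.4, 92.2 and 99 CPM and 25.5, 24.6 and 21.3 CPM (-1.98 ± 0.09, adjusted p = 1.81e-08). For both genes every treated library lay under every DMSO library. FTH1, the heavy chain of the iron store ferritin, was the 1 higher member, at 159, 119.8 and 122 CPM and 167, 166 and 156 CPM (0.29 ± 0.10, adjusted p = 0.0239). Its groups overlapped, and its call was lost without DMSO library 2 (0.21), DMSO library 3 (0.22) or amiloride library 2 (0.28) and with upper-quartile scaling (0.22). With the GC trend removed, the list had 16 lower and 4 higher members (median -0.577).

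Most zinc and copper genes were lower. Of 26 tested, 17 were lower (65.4%) and 5 higher, with a median of -0.368. SLC39A1, a zinc importer of the plasma membrane (chromosome 1, 153931575 to 153940660), stood at 139, 141 and 141 CPM and 68.5, 56.7 and 49.8 CPM (-1.27 ± 0.10, adjusted p = 8.7e-07). The importers SLC39A4 (-2.37 ± 0.34) and SLC39A3 (-1.21 ± 0.14) were also lower, and with the GC trend removed their values were -1.60 and -0.48. SLC30A1, the zinc exporter of the plasma membrane, rose from 37.4, 36.2 and 34.2 CPM to 87.2, 95.9 and 96.4 CPM (1.38 ± 0.08, adjusted p = 8.6e-08). SLC30A7, which loads zinc into the Golgi, rose from 12.6, 12.9 and 14.1 CPM to 26.4, 31.7 and 36.8 CPM (1.26 ± 0.12). MTF1, the zinc-sensing factor that drives SLC30A1 and metallothioneins, rose by 0.55 ± 0.10. With the GC trend removed, the list had 17 lower and 3 higher members.

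Genes of actin and its small GTPases were shifted to lower levels, and the cytoplasmic actins lost most reads. Of 61 genes tested, 30 were lower (49.2%) and 14 higher (23.0%), with a median of -0.323. ACTG1, cytoplasmic gamma-actin (chromosome 17, 79476439 to 79490873), stood at 2692, 2487 and 2410 CPM with DMSO and at 651, 579 and 537 CPM with amiloride (-2.10 ± 0.10, adjusted p = 3.42e-08). ACTB, cytoplasmic beta-actin (chromosome 7, 5566040 to 5603533), stood at 3299, 2831 and 2774 CPM and 869, 777 and 854 CPM (-1.83 ± 0.10, adjusted p = 7.27e-08). Every treated library of both actins lay far under every DMSO library. ACTG1 overlaps an unnamed gene on the other strand.

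Other regulators of the filament system changed in the same list. RHOC, a small GTPase of cell motility, went from 39.8, 40.7 and 45.5 CPM to 6.43, 6.39 and 5.16 CPM (-2.80 ± 0.11, adjusted p = 1.2e-08), and the cofilin kinase gene LIMK1 was at -2.18 ± 0.17, or -1.57 with the GC trend removed. The crosslinkers ACTN4 (-2.08 ± 0.11) and FLNA (-1.89 ± 0.14, or -1.25) were lower too. Among higher members were TMSB4X, which binds actin monomers (149.6, 155 and 153 CPM against 307, 274 and 296 CPM, 0.94 ± 0.06), the kinase gene ROCK1, which promotes contraction of the filaments (141, 134 and 133 CPM against 248, 262 and 260.1 CPM, 0.92 ± 0.06) and RDX, which ties actin to the membrane (0.64 ± 0.08). Groups were apart for these 3 genes.

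**Figure D3:**
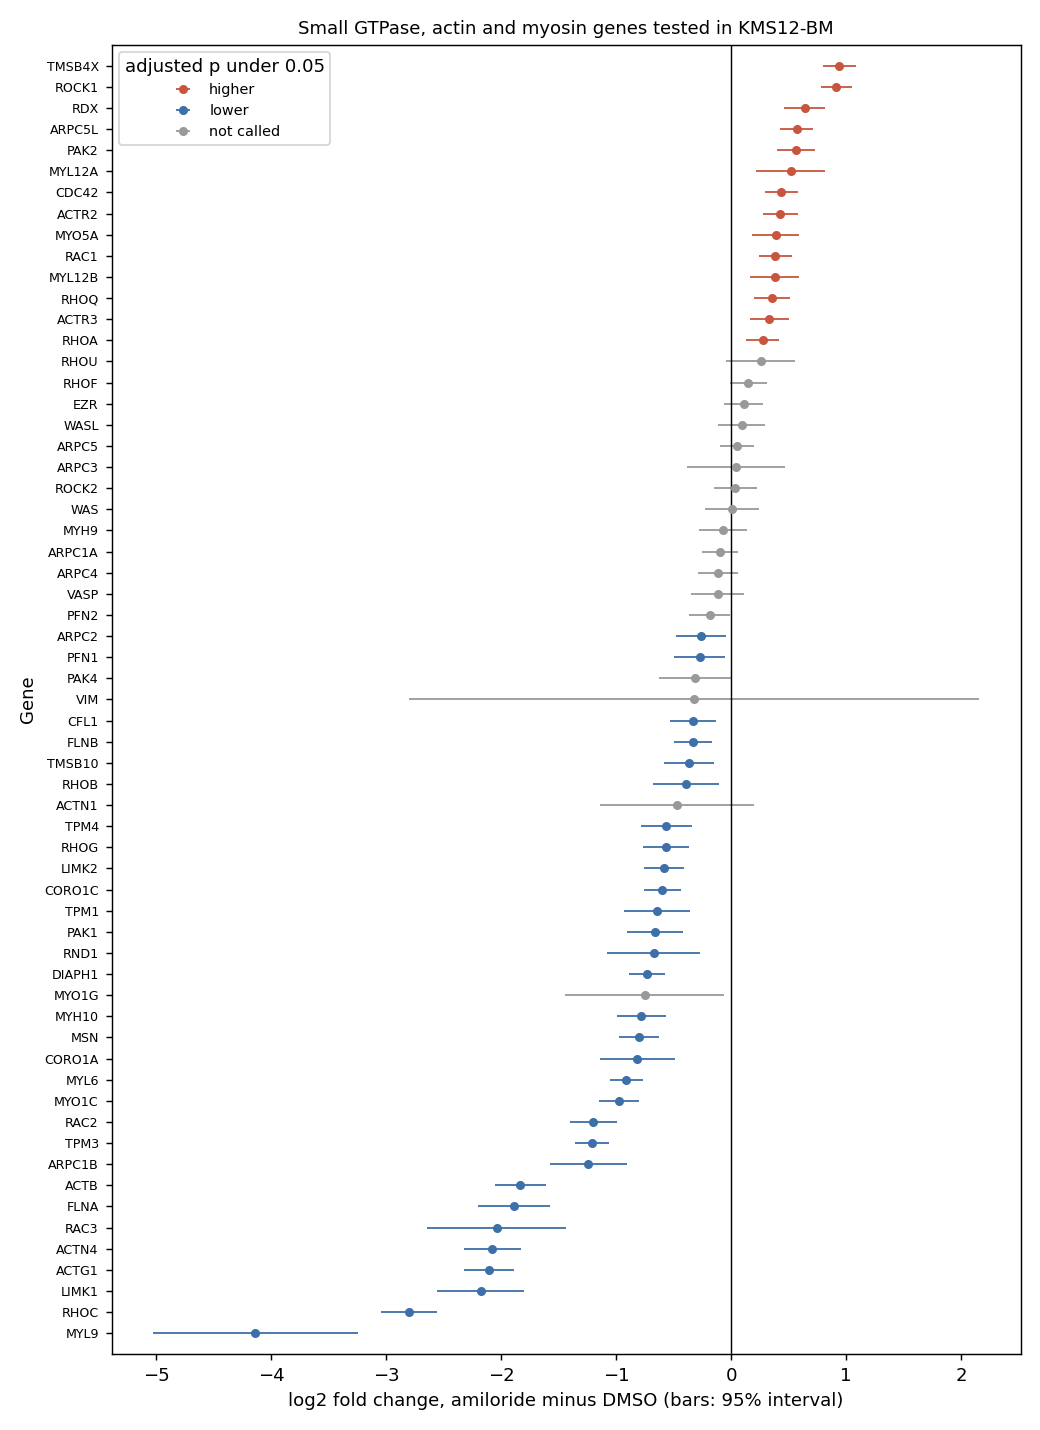
Log2 fold change of the 61 small GTPase, actin and myosin genes tested in KMS12-BM, amiloride minus DMSO, with 95% intervals. Blue marks the 30 lower genes, red the 14 higher genes and grey the 17 without a call. ACTG1 and ACTB lie near the lower end, and TMSB4X and ROCK1 at the upper end.

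The CArG box is the site of serum response factor, which is known to drive actin genes, and it was looked for in the 250 bases before the start of each gene after the values of the list had been seen. It occurred in 152 of 10277 tested genes with a promoter sequence (1.48%), in 1.38% of genes called higher and in 1.57% of genes called lower. Of the 50 genes of the actin list with a promoter sequence, 5 held one, of which 3 were lower (ACTG1, FLNA and TPM4, the last at -0.56 ± 0.10) and 2 were not called (ACTN1 and ROCK2). The stretches around the box are shown for the 3 lower genes because the first 2 are among the large falls, from RefSeq on GRCh38.p14, with the box in capitals: ACTG1 (chr17:81512854-81512923, minus strand), FLNA (chrX:154374689-154374758, minus strand) and TPM4 (chr19:16067335-16067404, plus strand).
ACTG1: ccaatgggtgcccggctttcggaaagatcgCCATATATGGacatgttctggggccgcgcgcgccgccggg
FLNA: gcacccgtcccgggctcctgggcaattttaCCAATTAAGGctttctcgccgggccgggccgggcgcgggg
TPM4: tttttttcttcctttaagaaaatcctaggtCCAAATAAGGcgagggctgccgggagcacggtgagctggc

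Among 27 adhesion genes 15 were lower (55.6%) and 5 higher, with a median of -0.338. ITGB7, the integrin beta chain that homes lymphocytes and myeloma cells, stood at 75.9, 74.1 and 75.7 CPM and 29.96, 22.3 and 22.1 CPM (-1.60 ± 0.12, adjusted p = 4.08e-07). The tetraspanin gene CD9 stood at 380.1, 373 and 336 CPM and 141, 172 and 157 CPM (-1.21 ± 0.13), and CD151 at -1.36 ± 0.09, or -0.76 with the GC trend removed. The intercellular adhesion genes went the other way. ICAM1, a ligand of leukocyte integrins, rose from 66.4, 61.6 and 64.6 CPM to 191, 237 and 259 CPM (1.83 ± 0.13, adjusted p = 4.96e-07), ICAM2 by 1.07 ± 0.13, and the integrin alpha chain gene ITGAE by 0.94 ± 0.15. The groups did not overlap for ITGB7, CD9 and ICAM1. With the GC trend removed the list had 11 lower and 8 higher members (median -0.126).

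Of 22 metalloproteases, plasminogen activators and inhibitors, 8 were higher and 5 lower, with a median of 0.103. MMP14, a membrane-bound protease that cleaves matrix, rose from 0.694, 0.707 and 0.63 CPM to 11.2, 13.7 and 14.1 CPM (4.26 ± 0.18, adjusted p = 1.63e-08), with no overlap of groups. ADAM15, a membrane disintegrin, was at -1.30 ± 0.14, or -0.67 with the GC trend removed.

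In antigen presentation, 17 of 32 genes were lower (53.1%) and 5 higher, with a median of -0.588. CIITA, the master activator of MHC class II genes (chromosome 16, 10960079 to 11036878), stood at 38.5, 28 and 32.7 CPM and 10.3, 6.57 and 5.81 CPM (-2.12 ± 0.23, adjusted p = 1.71e-05). The class II genes HLA-DQA1 (1.84, 2.42 and 3.29 CPM against 0.888, 0.415 and 0.445 CPM, -2.12 ± 0.31) and HLA-DMB, which helps to load peptides (12.2, 9.27 and 10.2 CPM against 4.62, 3.18 and 3.42 CPM, -1.49 ± 0.16), were lower in every treated library than in any DMSO library. Higher members were MR1, which presents vitamin metabolites to T cells (36.1, 33.1 and 34.7 CPM against 79.3, 74 and 85.3 CPM, 1.20 ± 0.08), RFXAP, a subunit of the factor that binds class II promoters (0.87 ± 0.09), and the peptide transporter gene TAP1 (0.58 ± 0.09). B2M, the light chain of class I, stood at 2078, 2009 and 1923 CPM and 2933, 2508 and 2549 CPM (0.41 ± 0.09, adjusted p = 0.00121), a call that was lost with the GC trend removed (0.07). With that trend removed, 9 members of the list were higher and 16 lower (median -0.322).

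Lists of channels and transporters held large changes in both directions, to be read beside 33.5% higher and 35.2% lower of all genes. Of 15 potassium channel genes tested, 8 were lower and 4 higher (median -0.486), of 35 calcium genes 16 and 11 (-0.051), and of 32 chloride, bicarbonate and lactate transport genes 15 and 11 (-0.284). P2RX1, an ATP-gated cation channel, stood at 9.3, 7.75 and 8.48 CPM and 1.49, 0.438 and 0.786 CPM (-3.24 ± 0.39, or -3.84 without amiloride library 1), while its relative P2RX7 rose from 8.5, 8.05 and 9.13 CPM to 21.4, 20.7 and 22.2 CPM (1.32 ± 0.11). The store pump gene ATP2A3 was at -2.14 ± 0.16, or -1.48 with the GC trend removed, and TRPM7, a channel fused to a kinase, at 1.07 ± 0.11. CLIC4, an intracellular chloride channel protein, went from 333, 328 and 338 CPM to 929, 1012 and 1056 CPM (1.58 ± 0.07, adjusted p = 1.71e-08). SLC16A3, the lactate exporter MCT4, stood at 14.2, 13.6 and 12.3 CPM and 4.68, 3.09 and 2.77 CPM (-1.92 ± 0.19, or -1.22 with the GC trend removed), against the rise of SLC16A4 of the same family. No overlap of groups was seen for the 4 genes given by library.

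Most autophagy genes were higher. Of 36 tested, 25 were higher (69.4%) and 5 lower, with a median of 0.564, and with the GC trend removed 27 were higher and 4 lower. MAP1LC3B, whose protein is coupled to the growing autophagosome (chromosome 16, 87417559 to 87438385), went from 47, 52.9 and 53.1 CPM to 132, 153 and 152 CPM (1.51 ± 0.10, adjusted p = 2.66e-07). TAX1BP1, a receptor for ubiquitinated cargo, went from 67.3, 84.1 and 81.7 CPM to 235, 288 and 298 CPM (1.81 ± 0.12, adjusted p = 2.49e-07). WIPI1, which binds the phosphoinositide of the forming membrane, went from 5.1, 4.34 and 4.11 CPM to 14.3, 16.4 and 17.9 CPM (1.85 ± 0.15). Treated and DMSO libraries did not overlap for these 3 genes. The lower members included the lipid transfer gene ATG2A (-1.07 ± 0.16, or -0.38 with the GC trend removed) and the scramblase gene ATG9A (-0.87 ± 0.08, or -0.4). ATG7, which activates the conjugation of LC3, was lower too (-0.81 ± 0.10, or -0.72). Messenger levels do not measure autophagic flux.

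Among 40 Golgi structure and SNARE genes 23 were higher (57.5%) and 4 lower, with a median of 0.377. The golgins GCC1 (55.5, 57.3 and 61.1 CPM against 154, 167 and 201 CPM, 1.58 ± 0.11) and GCC2 (34.6, 37.4 and 36.4 CPM against 90.9, 103 and 107 CPM, 1.47 ± 0.08), which tether vesicles, and GORASP1 of the Golgi stacks (1.35 ± 0.08) led them. GOLIM4 (-0.74 ± 0.07), BET1L (-0.67 ± 0.09) and GOLM1 (-0.60 ± 0.06) were lower. With upper-quartile scaling 8 members were lower, and with the GC trend removed 7. In the earlier steps of secretion, translocon genes had 10 higher and 8 lower of 25 (median -0.102), coat and cargo receptor genes 14 and 16 of 40 (-0.045), and N-glycosylation genes 8 and 16 of 39 (-0.133). With the GC trend removed the larger side turned for the translocon list (5 higher and 10 lower) and for the coat and cargo receptor list (16 and 14), and for the latter also without DMSO library 2 (14 and 13). SRD5A3, which makes the dolichol carrier of N-glycans, was at -2.90 ± 0.18, and SEC62 of the translocon at 1.07 ± 0.08.

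Of 21 clock genes tested, 18 were called, beside 68.7% of all genes tested. Of the 21, 13 were higher (61.9%) and 5 lower, with a median of 0.548. CIART, a repressor of the clock activators, was nearly silent at 0.278, 0.227 and 0.285 CPM and stood at 2.85, 3.76 and 4.07 CPM with amiloride (3.74 ± 0.28, adjusted p = 4.58e-07). The heme-binding repressors NR1D2 and NR1D1 rose, NR1D2 from 64, 63.8 and 68.2 CPM to 251, 269.5 and 287 CPM (2.04 ± 0.08, adjusted p = 1.14e-08) and NR1D1 from 15.1, 14.2 and 13.8 CPM to 37.9, 45.8 and 48.4 CPM (1.62 ± 0.11, adjusted p = 2.64e-07). TIMELESS, known in humans mainly for the protection of replication forks, fell from 220.3, 192 and 199.7 CPM to 57.2, 55.7 and 52.1 CPM (-1.89 ± 0.09, adjusted p = 3.61e-08), and its partner TIPIN by 0.74 on the log2 scale. The period gene PER3 stood at 3.99, 3.66 and 2.93 CPM and 1.2, 1.31 and 1.2 CPM (-1.50 ± 0.17). For CIART, NR1D1, NR1D2, TIMELESS and PER3 the groups did not overlap.

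The E-box CACGTG, at which the clock activators bind, was searched on both strands of the 250 bases before the start. It reads the same on both strands and also contains the shorter motif ACGTG. It occurred in 1147 of 10277 tested genes (11.2%), at the same 11.2% in genes called higher and in genes called lower, and in 7 of 19 clock genes with a promoter sequence. Those 7, which are named for this match, were CIART, NR1D2, BHLHE40 (1.46 ± 0.12) and PER1 (0.68 ± 0.13, or 1.33 with the GC trend removed), which were higher, and TIMELESS, BHLHE41 (-0.54 ± 0.07) and TEF (-0.37 ± 0.10, or 0.00 with the GC trend removed), which were lower. Stretches of 3 higher genes and 1 lower gene are printed because the motif stands before genes that moved in both directions, from RefSeq on GRCh38.p14 with the motif in capitals: CIART (chr1:150282395-150282460, plus strand), NR1D2 (chr3:23945936-23946001, plus strand), PER1 (chr17:8152542-8152607, minus strand) and TIMELESS (chr12:56449427-56449481, minus strand).
CIART: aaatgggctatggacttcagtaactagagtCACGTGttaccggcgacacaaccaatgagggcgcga
NR1D2: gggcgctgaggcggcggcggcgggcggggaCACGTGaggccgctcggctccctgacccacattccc
PER1: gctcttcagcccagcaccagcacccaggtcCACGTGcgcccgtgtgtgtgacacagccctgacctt
TIMELESS: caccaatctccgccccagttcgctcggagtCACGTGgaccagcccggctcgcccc

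The other motifs searched on both strands were a pair of CACGTG set 5 bases apart, the NF-kappaB site, TGACGTCA of cyclic AMP response, CCAAT of nuclear factor Y, TGANNNNGC of antioxidant response, the E2F sites TTTGGCGC and also TTTCCCGC, TTTGAA of late cell-cycle genes, ACGTG of hypoxia response, GCGTG of aryl hydrocarbon response, GGGCGG of GC boxes, TTGCATCA of amino acid response and TGCNCNC of metal response. GGGCGG stood before 70.8% of the genes called higher, 78.2% of the genes called lower and 73.7% of all genes tested. TTTGAA stood before 13.7%, 9.45% and 11.6%. A match is a description of these letters and not of bound factors.

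Several lists of transcription and chromatin regulators held more higher than lower members. Mediator, which links activators to RNA polymerase II, had 20 of 32 higher and 6 lower (median 0.415), with MED30 (19.6, 19.1 and 18.5 CPM against 46.4, 48.9 and 55.4 CPM, 1.40 ± 0.09), MED10 (1.38 ± 0.10) and CDK19 (1.22 ± 0.08) in the lead and MED22 at -1.34 ± 0.15. Acetylation genes had 23 of 38 higher and 7 lower (0.409), among them the acetyltransferase genes CREBBP (161, 129.5 and 124 CPM against 332, 392 and 427 CPM, 1.48 ± 0.12) and KAT2B (1.43 ± 0.13) and the reader BRD3 (1.46 ± 0.14). The tubulin deacetylase gene HDAC6 was lower (41.7, 38.1 and 41.2 CPM against 16.1, 14.6 and 10.9 CPM, -1.53 ± 0.12). MED30, CREBBP and HDAC6 had groups without overlap.

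Histone demethylases had 15 of 24 higher and 7 lower (0.455), and methyltransferases 20 of 38 and 11 (0.211). KDM7A, which removes repressive methyl marks, went from 21.3, 23.2 and 24.2 CPM to 85.8, 103 and 126 CPM (2.19 ± 0.14, adjusted p = 1.4e-07), and KMT5B rose by 1.43 ± 0.08. SMYD3 fell from 20.8, 21.3 and 19.7 CPM to 6.17, 6.32 and 4.65 CPM (-1.84 ± 0.12). Genes of DNA methylation had 12 of 18 higher and 3 lower (0.23, or 7 higher with upper-quartile scaling). All 3 lower members were methyltransferases: DNMT3B (-1.31 ± 0.09), DNMT1 (-0.50 ± 0.08) and DNMT3A (-0.40 ± 0.15), the last with a call lost under 8 of 15 alternatives (-0.42 to -0.17). TET2, which oxidises methylcytosine, rose by 0.92 ± 0.09. In SWI/SNF and other remodelers 16 of 39 were higher and 11 lower (0.066), or 13 and 14 with upper-quartile scaling, and the ATPase gene SMARCA4 went from 217, 199.99 and 179 CPM to 67.8, 64.8 and 64.9 CPM (-1.59 ± 0.09).

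Polycomb repressive complex 1 had 10 of 23 genes higher and 8 lower (0.058), or 11 and 5 with the GC trend removed. YAF2 (1.86 ± 0.09) and RYBP (1.19 ± 0.08), which are alternative subunits, rose, and the chromodomain gene CBX7 fell (-1.63 ± 0.18).

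Among sequence-specific factors, 11 of 18 KLF and SP genes were higher and 2 lower (0.399), with KLF3 at 6.69, 7.7 and 6.83 CPM and 14.4, 18.2 and 20.8 CPM (1.33 ± 0.14) and KLF2, a factor of lymphocyte quiescence, at 0.95 ± 0.16. KLF13 was lower (662, 603 and 615 CPM against 443, 358 and 357 CPM, -0.70 ± 0.10). Of 20 nuclear receptor genes, 11 were higher and 4 lower (0.321). NR1H3, the oxysterol receptor LXR alpha, rose from 5.27, 5.96 and 5 CPM to 14.1, 17.6 and 17.3 CPM (1.59 ± 0.13), and NR3C1, the glucocorticoid receptor, from 41.8, 40.1 and 40.8 CPM to 75.2, 79.4 and 87 CPM (0.98 ± 0.08, adjusted p = 6.53e-07). The glucocorticoid receptor is the target of dexamethasone in myeloma treatment. RNA polymerase subunits had 8 of 31 higher and 14 lower (-0.156), with POLR1E at -1.77 ± 0.10.

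Of 44 genes of messenger turnover 29 were higher (65.9%) and 7 lower, with a median of 0.383. TNRC6C (1.55 ± 0.14) and AGO4 (23.2, 25.2 and 24 CPM against 54.3, 54.7 and 67.2 CPM, 1.28 ± 0.10) of microRNA silencing and PNRC1 (48.1, 51.2 and 49.2 CPM against 118, 131 and 143 CPM, 1.40 ± 0.09) rose, while DCPS, which clears cap remnants (-1.33 ± 0.08), and the microRNA processor gene DROSHA (-0.91 ± 0.13) fell. Of 40 cleavage and polyadenylation genes, 20 were higher and 9 lower (0.181). PCF11, which couples cleavage to termination, went from 96, 101 and 103 CPM to 342, 439 and 506 CPM (2.10 ± 0.15, adjusted p = 4.35e-07), and CPSF4 from 139, 117 and 121 CPM to 41.1, 37.7 and 29.7 CPM (-1.79 ± 0.12). Translation factors had 16 of 49 higher and 13 lower (-0.027), which turned to 15 and 20 with the GC trend removed and to 16 and 18 with upper-quartile scaling. The start-codon factors EIF1 (0.93 ± 0.12), EIF1B (1.35 ± 0.13) and EIF5 (1.19 ± 0.07) rose while EEF1A1 and the elongation factor kinase gene EEF2K (-2.07 ± 0.12) fell. Within the exchange factor EIF2B, the beta subunit gene EIF2B2 rose (47.6, 40.4 and 38.8 CPM against 102, 134 and 153 CPM, 1.62 ± 0.14) and the gamma subunit gene EIF2B3 fell (20.6, 19.6 and 22.8 CPM against 8.31, 6.78 and 7.11 CPM, -1.51 ± 0.11).

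Of 69 ubiquitin ligase genes 40 were higher (58.0%) and 18 lower, with a median of 0.331. FBXO32, also known as atrogin, is a ligase of muscle wasting under FOXO factors, and it went from 1.46, 1.11 and 1.26 CPM to 12.8, 12.5 and 15.7 CPM (3.43 ± 0.16, adjusted p = 3.28e-08). KLHL24, which directs keratins to degradation, went from 27.2, 28.7 and 31.7 CPM to 196, 245 and 276 CPM (3.03 ± 0.14, adjusted p = 4.24e-08). KLHL6, a ligase adaptor of B cells, went from 5.38, 4.8 and 4.66 CPM to 31.4, 32.7 and 38.9 CPM (2.80 ± 0.11). SKP2, which marks the cell-cycle inhibitor p27 for degradation, fell from 86.1, 92.5 and 101 CPM to 26.1, 29.2 and 27.5 CPM (-1.76 ± 0.08, adjusted p = 3.38e-08), and CDKN1B, which encodes p27, rose from 264, 232 and 233 CPM to 429.5, 499 and 482 CPM (0.95 ± 0.08, adjusted p = 9.76e-07). The groups did not overlap for any of these 5 genes. Of 59 deubiquitinase genes, 32 were higher and 15 lower (0.264, or -0.001 with the GC trend removed), with OTUD1 at 1.95 ± 0.12 and USP5 at -1.54 ± 0.08.

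Cyclin and inhibitor genes were mixed, with 9 of 24 higher and 8 lower (median 0.032). CCNG2, an atypical cyclin of arrested cells (chromosome 4, 78078360 to 78354542), went from 20.7, 20.3 and 24.7 CPM to 51.2, 71.8 and 79.3 CPM (1.62 ± 0.15, adjusted p = 3.11e-06). CCNE2, which drives entry into DNA synthesis, went from 22.6, 19.3 and 20.6 CPM to 4.91, 5 and 5.23 CPM (-2.05 ± 0.11, adjusted p = 7.42e-08). CDK2 (-0.77 ± 0.08) and CDC25A (-0.70 ± 0.10) were lower, while CDK4 stood at 551, 466 and 547 CPM and 494, 550.4 and 498 CPM (-0.02 ± 0.08) and was not called. Cohesin and condensin genes had 14 higher and 10 lower of 29 (0.099), or 11 and 12 with the GC trend removed, with NCAPG2 of condensin at -1.42 ± 0.09. Centriole and cilium genes had 15 and 21 of 53 (-0.145), and nuclear pore genes 15 and 16 of 41 (-0.039), or 9 and 18 with the GC trend removed. NUP188, a scaffold of the inner ring, went from 179, 172 and 168 CPM to 39.4, 37.5 and 37.4 CPM (-2.19 ± 0.07, adjusted p = 4.67e-09) and the membrane nucleoporin gene NUP210 from 964, 990.4 and 923 CPM to 318, 294 and 239 CPM (-1.76 ± 0.13), whereas NUP153 of the basket (-0.01 ± 0.07) was not called.

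Signalling lists held opposed members, as did all genes together (33.5% higher and 35.2% lower). In PI3K, AKT and FOXO signalling 13 of 28 were higher and 7 lower (median 0.174). PIK3IP1, an inhibitor of PI3K, went from 30.7, 29.3 and 30.2 CPM to 159.8, 189 and 197 CPM (2.60 ± 0.19, adjusted p = 9.62e-07), PHLPP2, a phosphatase of AKT, was at 1.14 ± 0.09, and the kinase genes AKT1 and AKT2 were at -1.26 ± 0.10 and -0.97 ± 0.11. In the mTORC1 list 14 of 36 were higher and 11 lower (-0.049). RRAGC, a GTPase of amino acid sensing, went from 12.2, 13.6 and 14.5 CPM to 46.5, 62.9 and 68.6 CPM (2.14 ± 0.16, adjusted p = 4.35e-07), and FNIP1, which acts on it, was at 1.63 ± 0.12, whereas RRAGB fell by 1.36 on the log2 scale. Of 3 alpha-arrestin genes, ARRDC2 (1.16 ± 0.08) and ARRDC3 (0.95 ± 0.10) were higher and ARRDC1 was lower (-1.30 ± 0.18, or -0.62 with the GC trend removed). In the TGF-beta and BMP list 15 of 31 were higher and 9 lower (0.263). The inhibitors SMAD7 (8.46, 7.65 and 8.82 CPM against 27.9, 32.4 and 34.7 CPM, 1.93 ± 0.11) and SKIL (1.78 ± 0.10) and the ligand BMP6 (1.55 ± 0.09) rose, and ID3, a target of BMP signalling, went from 51.9, 45.1 and 37.6 CPM to 4.39, 2.44 and 2.05 CPM (-3.90 ± 0.27, adjusted p = 8.56e-07). No overlap was seen for PIK3IP1, RRAGC, SMAD7 and ID3.

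In cytokine signalling 17 of 38 genes were higher and 13 lower (0.074). CISH, a feedback inhibitor that STAT5 induces, went from 5.9, 5.18 and 4.9 CPM to 0.914, 0.392 and 0.718 CPM (-2.99 ± 0.24), and IL21R, a cytokine receptor, from 104, 102 and 96.8 CPM to 34, 25 and 27.8 CPM (-1.80 ± 0.11). JAK2 (1.29 ± 0.09) and JAK1 (1.12 ± 0.08) rose, while TYK2 was at -1.75 ± 0.12, or -1.17 with the GC trend removed. IL2RG, the receptor chain that several cytokines share, was not called (0.04 ± 0.07). In the MAPK list 12 of 32 were higher and 6 lower (0.189), with BRAF at 1.42 ± 0.10 and MAPK3 at -1.22 ± 0.07. Wnt genes had 11 higher and 16 lower of 38 (-0.215), with the ligand gene WNT10B at 52.2, 43 and 44.9 CPM and 15, 12.8 and 11.4 CPM (-1.83 ± 0.13). Notch genes had 8 higher and 10 lower of 29 (0.017), which turned to 14 higher and 7 lower with the GC trend removed.

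Lipid enzymes outside cholesterol synthesis included single genes with large changes in both directions. The shares called in the sphingolipid and phospholipid lists were close to those of all genes (33.5% higher and 35.2% lower). Sphingolipid genes had 12 higher and 13 lower of 33 (median 0.055). SPTLC2, a catalytic subunit of the enzyme that starts sphingolipid synthesis (chromosome 14, 77972340 to 78082980), went from 54.4, 52.6 and 55.8 CPM to 7.81, 6.53 and 6.09 CPM (-2.99 ± 0.10, adjusted p = 5.15e-09), while its partner SPTLC1 rose (34, 35.6 and 54.3 CPM against 70.7, 83 and 61.5 CPM, 0.80 ± 0.17). SGMS2, which makes sphingomyelin at the plasma membrane, went from 15.5, 16.8 and 14.3 CPM to 2.43, 1.75 and 1.95 CPM (-2.92 ± 0.14), and SMPD1, which breaks it down in lysosomes, from 16.2, 14.5 and 12.8 CPM to 32, 32.9 and 36.2 CPM (1.22 ± 0.11). The groups did not overlap for any of these 4 genes.

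Phospholipid genes had 11 higher and 14 lower of 34 (-0.044), which turned to 14 higher and 12 lower with the GC trend removed. GPAT3, an acyltransferase of glycerol phosphate named here after its values were seen, was at 0 in the 3 DMSO libraries and at 0.836, 1.64 and 1.98 CPM with amiloride, and no fold is given for it. LPCAT3, which puts polyunsaturated fatty acids into membranes, went from 57.7, 61.8 and 68.3 CPM to 9.01, 6.69 and 8.07 CPM (-2.98 ± 0.12, adjusted p = 1.23e-08). PTDSS1, which makes phosphatidylserine, went from 408, 468 and 459.9 CPM to 117, 114 and 95 CPM (-2.03 ± 0.09, adjusted p = 3.13e-08). The choline kinase gene CHKA (1.12 ± 0.10) and the acyltransferase gene GPAM (1.01 ± 0.09) rose. Peroxisome genes had 8 higher and 15 lower of 32 (-0.086), with PEX7, the receptor of a peroxisomal import signal, at -1.62 ± 0.14. Enzymes of the pentose phosphate and hexosamine routes had 4 higher and 7 lower of 15 (-0.076), with RBKS, the ribose kinase, at 1.42, 1.44 and 1.46 CPM and 7.81, 8.12 and 7.15 CPM (2.41 ± 0.13).

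Some abundant list members were measured closely enough to place their 95% interval within 0.25 of 0 on the log2 scale. These included RPN1 of the oligosaccharyltransferase (-0.08 ± 0.06), the signal recognition gene SRP14 (0.07 ± 0.07), the ceramide synthase gene CERS2 (0.11 ± 0.06) and CDK4, NUP153 and IL2RG given above. Within the oligosaccharyltransferase, RPN2 was nonetheless lower (513, 443 and 457 CPM against 197, 198 and 221 CPM, -1.20 ± 0.08). Several of these values depend on the processing. EEF1D (-0.02 ± 0.09), SELPLG (-0.04 ± 0.10), CSNK1E (-0.08 ± 0.07) and TMED10 (0.12 ± 0.06) belonged to the same set and had 0.73, 0.43, 0.36 and -0.21 with the GC trend removed, where NUP153 (-0.18) and CERS2 (0.27) also passed the threshold. RPN1 passed it with upper-quartile scaling (-0.15) and TMED10 in DESeq2 (0.13).

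Across genes, the response followed the GC content of the transcript. The median log2 fold change of protein-coding genes went from 0.383 in the lowest of 5 bins of GC content (median 38.3%) through 0.252, 0.005 and -0.29 to -0.602 in the highest (62.2%), and 57.7% of genes in the lowest bin were higher against 16.1% in the highest. In JJN3 the same bins had medians from 0.041 to -0.134. Spearman's rank correlation was -0.373 with GC content and 0.121 with transcript length over 11724 genes, and 0.155 with the length of the gene over 11778. These genes share their libraries and are no independent replicates. The number of introns had a rank correlation of -0.03. The part of library preparation or read placement in the GC pattern was not tested.

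**Figure D4:**
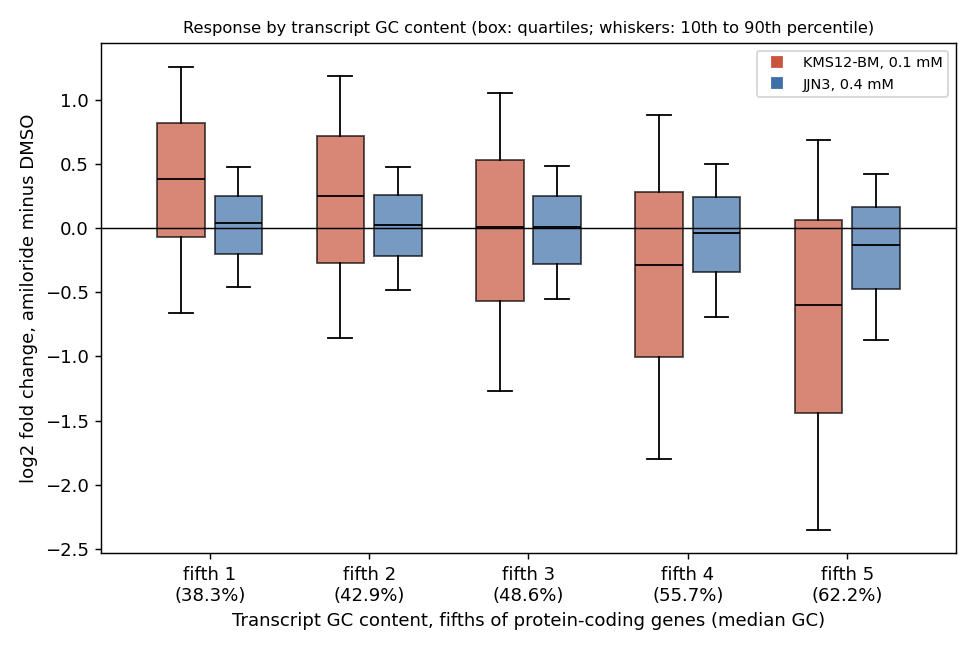
Log2 fold change, amiloride minus DMSO, of protein-coding genes in 5 bins of transcript GC content, for KMS12-BM (0.1 mM) and JJN3 (0.4 mM). Boxes give the quartiles with the median, and whiskers the 10th and 90th percentile of genes. The KMS12-BM median goes from 0.383 to -0.602 across the bins and the JJN3 median from 0.041 to -0.134.

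Chromosomes differed in their medians, and chromosome 22 was the lowest of the nuclear ones, a feature singled out after its value was seen. Its 290 protein-coding genes had a median of -0.528, with 56.2% lower and 21.7% higher. Against the mean of the DMSO libraries, the chromosome 22 median of log2(CPM + 1) was -0.38, -0.439 and -0.533 in the 3 amiloride libraries and 0.065, -0.027 and -0.045 in the DMSO libraries, while the other chromosomes together lay between -0.009 and 0.002. The genes of chromosome 22 have a median GC content of 56.9%, and with the GC trend removed their median was -0.141. Chromosome 19, at a median GC content of 59.3%, had a median of -0.132, which became 0.161 with the trend removed. In JJN3 the median of chromosome 22 was -0.068.

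The response of JJN3 at 0.4 mM was used to ask which changes KMS12-BM shared, with control libraries of its own. Since line and dose change together, their parts cannot be told apart. Of 13913 genes tested in both lines, 4740 were called in both, of which 3993 moved the same way (1827 higher and 2166 lower) and 747 in opposite ways. In JJN3 6842 of 15704 genes were called (43.6%), and the interaction of line and drug was called for 7681 of 17772 genes (43.2%). MGAM was at 7.10 ± 0.89 in JJN3, with a difference of 0.36 ± 0.44 (adjusted p = 0.644), and TINCR was at 3.28 ± 0.53 there (difference -0.24 ± 0.55, adjusted p = 0.79). A p that misses the threshold does not show equal responses.

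Most of the other large rises and falls were smaller in JJN3. FBXO32 (0.25 ± 0.25), TCP11L2 (0.02 ± 0.22), BACH2 (0.10 ± 0.10), KLHL24 (0.02 ± 0.11) and KLHL6 (-0.08 ± 0.26) were not called there, and their differences between the lines were 3.17 ± 0.30, 3.45 ± 0.36, 3.003 ± 0.20, 3.01 ± 0.19 and 2.87 ± 0.25, each with an adjusted interaction p under 0.05. CIART was at -0.16 ± 0.24 in JJN3 (difference 3.88 ± 0.37, adjusted p = 7.84e-08), and SPTLC2 at -0.17 ± 0.08 (difference -2.82 ± 0.13, adjusted p = 9.95e-12). ACTB was at 0.07 ± 0.08 and not called in JJN3 (difference -1.91 ± 0.12, adjusted p = 6.81e-10), and ACTG1 was higher there (0.43 ± 0.09, difference -2.54 ± 0.13, adjusted p = 4.46e-11). CCNG2 was lower in JJN3 (-0.94 ± 0.14, difference 2.55 ± 0.23, adjusted p = 7.65e-08). Of the lists, iron and heme genes had a median of -0.239 in JJN3 and 14 of 24 interactions called toward lower values in KMS12-BM, autophagy genes a median of 0.173 and 20 of 36 toward higher values, and actin genes a median of 0.013 and 24 of 61 toward lower values, against 21.6% of all genes in each direction.

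**Figure D5:**
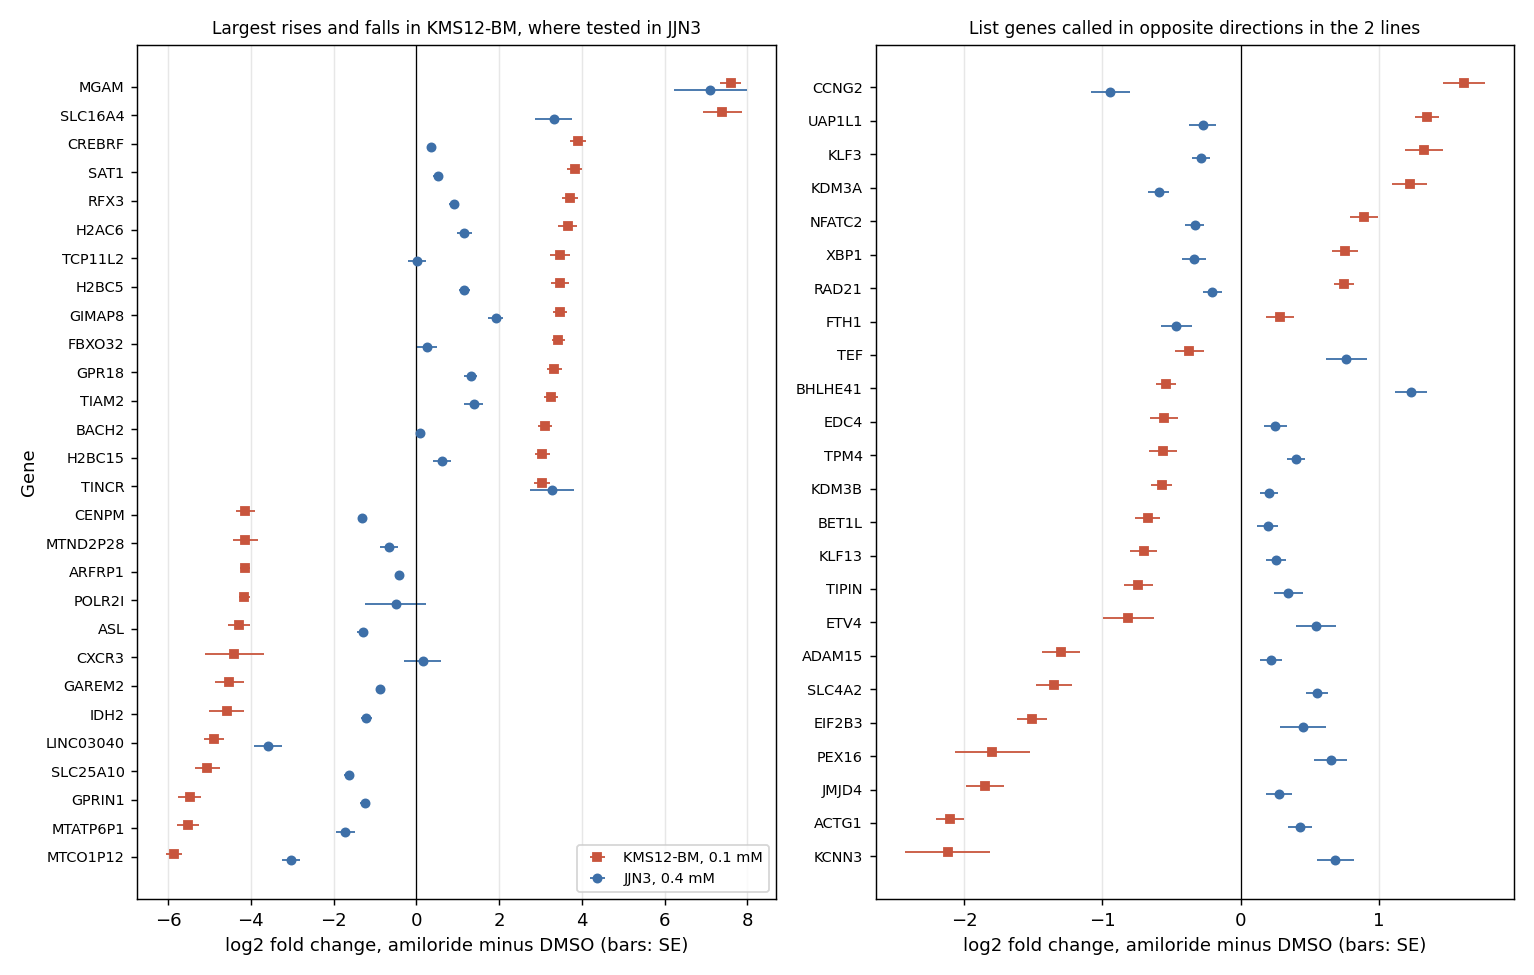
Log2 fold change with its standard error in KMS12-BM at 0.1 mM (squares) and JJN3 at 0.4 mM (circles), for 28 of the 30 largest changes in KMS12-BM that were tested in JJN3 (left) and for 24 named list genes called in opposite directions (right). MGAM and TINCR nearly coincide in the 2 lines, while most other genes on the left lie nearer to 0 in JJN3.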

How the data were processed

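Raw read counts per gene, 1 table per library, were deposited by the authors, who used cutadapt 1.4, TopHat2 2.0.11 and HTSeq 0.6.1p1 on hg19, per the submitters' processing notes. Neither the annotation used for counting nor its strand setting is given in the sources used here. Of 57905 gene IDs, 55538 matched the GRCh37 annotation, from which names, coordinates and GC content were taken, and 0 columns of samples were left unused. The 9 KMS12-BM libraries were fitted together in edgeR 4.0.16 (R 4.3.3) with TMM factors and a filter on low counts (filterByExpr, minimum count 10, total 15). Its robust quasi-likelihood test and Benjamini-Hochberg adjustment followed. This step was also run on counts simulated from edgeR's own kind of model with few changed genes. Such counts cannot check scaling or error rates in data where most genes are called. The fit of 9 libraries shares its estimate of the spread with the 3 TG003 libraries. In these, reads with several placements made up 7.791% to 8.23% of the records, less than in any of the 6 compared libraries. With those 6 alone, 10332 genes were called. All 18 libraries entered the interaction fit. DESeq2 1.42.0, other scaling and filters, a GC trend removed per library and left-out libraries were alternatives.

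The members and lists were chosen with earlier results of these data known. Named genes are the 3 largest called changes in each direction per list (mean of at least 1 CPM), the 15 largest rises and falls with groups that do not overlap (at least 5 CPM), the 10 largest differences in CPM in each direction, genes under 0.1 CPM in one group and at least 1 CPM in the other, and abundant list members with an interval near 0. GPAT3, PER1, BHLHE40, BHLHE41, TEF, TPM4, FLNA, ACTN4, ACTN1, ROCK2, TNFRSF17, CD38, PRDM1, CD14 and CD3E, and the CArG box search, were chosen after their values were seen. Not every gene that these rules choose is described, and some are not reported here.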

Additional observations from a re-analysis of the deposited data

Results flagged for a closer look

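Of the named genes, 24 were called in opposite directions in KMS12-BM at 0.1 mM and JJN3 at 0.4 mM, with an edgeR interaction that also passed the threshold. Line and dose cannot be told apart in these differences, which are given on the log2 scale as KMS12-BM minus JJN3.

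Lower in KMS12-BM and higher in JJN3 were the potassium channel gene KCNN3 (difference -2.84), ACTG1 (-2.54), the peroxisomal gene PEX16 (-2.45), the hydroxylase gene JMJD4 (-2.13), EIF2B3 (-1.97), the anion exchanger gene SLC4A2 (-1.91) and the clock repressor gene BHLHE41 (-1.78). Smaller differences of this kind were those of ADAM15 (-1.52), ETV4 (-1.37), TEF (-1.14), TIPIN (-1.09), TPM4 (-0.97), KLF13 (-0.96), BET1L (-0.88), EDC4 (-0.81) and KDM3B (-0.78). With the GC trend removed, TEF was at 0.00 in KMS12-BM and the calls of EDC4 (-0.05) and ETV4 (-0.27) were lost. The KMS12-BM values of JMJD4, PEX16, SLC4A2 and ADAM15 went from -1.85, -1.80, -1.35 and -1.30 to -1.25, -1.15, -0.68 and -0.67.

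Higher in KMS12-BM and lower in JJN3 were the cyclin gene CCNG2 (difference 2.55), the demethylase gene KDM3A (1.81), UAP1L1 of the hexosamine route (1.62), KLF3 (1.6), the calcineurin-regulated factor gene NFATC2 (1.22), the plasma cell factor gene XBP1 (1.09), RAD21 (0.95) and FTH1 (0.75). With the GC trend removed UAP1L1 was at 1.95 in KMS12-BM, against 1.35. The KMS12-BM groups of FTH1 overlapped, and its call was lost under 4 alternatives (0.21 to 0.28).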

How the results depend on the processing

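All 7 counts of called genes stayed within 1.5 times their value under every alternative run. The number of calls in KMS12-BM was 10163 to 10957 with 1 library left out and 9765 to 11297 otherwise. The number at least 2-fold changed was 4488 to 5195 and 3713 to 5533. The interaction count was 7137 to 8021 and 7524 to 7923. No GC-corrected interaction fit was planned. Of 358 named genes, 334 kept direction and side of the threshold throughout. In total 29 values lost a call and 6 gained one. Directions turned for 7 genes, each with the GC trend removed: IGHD (0.26), KLF16 (0.41), EEF1D (0.73), SELPLG (0.43), TMED10 (-0.21), CSNK1E (0.36) and TEF (0.00). The larger side turned for 6 lists with the GC trend removed (translocon, coat and cargo receptor, Notch, translation, cohesin and phospholipid), 2 with upper-quartile scaling (remodelers and translation) and 1 without DMSO library 2 (coat and cargo receptor). The cause was not tested. Upper-quartile scaling put the median of all genes at -0.091.

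Library numbers were checked as a possible pairing. Every library has its own number, and the replicates of each group are in the order of these numbers. Deviations of libraries at the same place in this order correlated at 0.11, 0.0717 and 0.0616 across genes. Those of the other pairs correlated at -0.0717 to 0.0162. Each library thus correlated best with the library at its own place, though weakly. The labels do not say what such libraries share, and this was not tested. A block by runs of consecutive library numbers, each run with a library of every group, gave 11195 calls. Of these, 4696 were at least 2-fold, and the interaction fit with this block gave 7923 calls.

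Genes near 0.1 CPM in a group rest on a few reads, which also limits the fold changes given for MGAM and SLC16A4.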
